A study of Mus musculus with 18 samples.

Results

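Of 35150 mouse genes measured in the whisker pad, 8 that are active in myelinating Schwann cells were followed after the facial nerve was cut: Mbp, Pmp22, Prx, Mag, Mal, Gjb1, Ncmap, and Egr2. They were chosen by name as a list of Schwann cell myelin genes, and each was taken as the sum over its Ensembl transcripts. RNA was sequenced from punches of skin and muscle of the rostral whisker pad in 18 samples, the right and the left pad of 9 adult mice, sampled at day 1, day 3, or day 7 (3 mice each). On the right side 2 branches of the facial nerve, the buccal and the superior marginal, were transected (denervated), and on the left side the skin was opened and closed over an intact nerve (sham). The denervated pad was always the right pad, so that side and lesion cannot be told apart, and no pad without surgery was analysed here. The strain and genotype of these mice are not given in the sources used here. The pad is also supplied by sensory branches of the trigeminal nerve, which were not cut.

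Schwann cells wrap the larger axons of peripheral nerves in myelin, a stack of membrane that is held together by a small set of proteins. A myelinating Schwann cell depends on the axon it ensheathes. When the axon is cut off from its cell body, the distal stump degenerates, and the Schwann cells there shut down myelin genes, digest their myelin, and switch on genes of a repair state. The zinc finger factor Egr2 (Krox20) drives the myelin genes together with Sox10, and the factor Jun opposes it. Egr2 is also an immediate early gene that many other cells of skin and muscle induce after a stimulus.

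The 8 genes have different roles. Mbp encodes myelin basic protein and Pmp22 encodes peripheral myelin protein 22, both parts of compact myelin. Prx encodes periaxin, a scaffold that links the sheath to its outer matrix, and Mag encodes the myelin-associated glycoprotein, an adhesion molecule on the side that faces the axon. Mal encodes a small membrane protein of lipid rafts, Gjb1 encodes connexin 32, the gap junction channel of uncompacted myelin, and Ncmap encodes a small membrane protein of noncompact myelin. Several of them are also used outside the nerve. Mbp and Mag are made by oligodendrocytes, Mbp has transcripts in immune cells, Pmp22 is found in many tissues, and Mal and Gjb1 are found in epithelia.

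In build GRCm38 with GENCODE release M21, Pmp22 lies on chromosome 11 (63128982 to 63159547, plus strand), Prx on chromosome 7 (27499324 to 27520214, plus strand), Mag on chromosome 7 (30899176 to 30914873, minus strand), and Mal on chromosome 2 (127633226 to 127656695, minus strand). Gjb1 lies on chromosome X (101376378 to 101385629, plus strand), Ncmap on chromosome 4 (135369576 to 135398227, minus strand), and Egr2 on chromosome 10 (67535475 to 67542188, plus strand). Prx shares 300 of its 5579 exon bases with Gm15541 on the opposite strand, and reads from those bases cannot be told apart without strand. The other 7 genes share no exon base with another annotated gene.

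For Pmp22, Gjb1, and Ncmap, 250 bases before RefSeq starts at or near their main start sites are shown. The results on start sites include these genes. Pmp22 has 2 main starts. Transcript Pmp22-204, with 33.9% of the summed level of the gene, starts after the upper of the Pmp22 sequences, and Pmp22-201, with 63.5%, starts after the lower. The window of Gjb1 lies before the start at 101383736, which holds 86.1% of its gene, and the window of Ncmap before the start that holds 87.1%. Sequences are from RefSeq (GRCm38.p6), 5′ to 3′ in the direction of the gene, and capitals mark a match to 1 of 2 motifs described after them. RefSeq and GENCODE place some starts apart: 55 bases lie between the lower Pmp22 window and the GENCODE start of Pmp22-201, and 4 between the Gjb1 window and its GENCODE start, whereas the other 2 windows end at the GENCODE start.
Pmp22, chr11:63128732-63128981, plus strand: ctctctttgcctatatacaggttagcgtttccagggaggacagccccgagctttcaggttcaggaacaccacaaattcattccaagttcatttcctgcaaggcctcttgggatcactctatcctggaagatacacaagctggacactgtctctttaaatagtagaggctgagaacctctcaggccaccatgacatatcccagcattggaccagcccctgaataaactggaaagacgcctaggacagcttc
Pmp22, chr11:63131207-63131456, plus strand: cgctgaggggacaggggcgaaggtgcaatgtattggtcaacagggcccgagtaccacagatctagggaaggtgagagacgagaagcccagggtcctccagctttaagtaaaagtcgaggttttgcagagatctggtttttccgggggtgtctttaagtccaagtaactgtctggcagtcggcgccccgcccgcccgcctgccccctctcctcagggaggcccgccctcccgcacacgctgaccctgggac
Gjb1, chrX:101383482-101383731, plus strand: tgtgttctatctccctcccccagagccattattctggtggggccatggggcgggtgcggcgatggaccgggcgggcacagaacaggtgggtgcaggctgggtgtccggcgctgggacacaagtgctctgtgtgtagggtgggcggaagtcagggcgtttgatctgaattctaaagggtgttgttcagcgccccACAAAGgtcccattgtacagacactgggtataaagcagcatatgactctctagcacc
Ncmap, chr4:135385673-135385922, minus strand: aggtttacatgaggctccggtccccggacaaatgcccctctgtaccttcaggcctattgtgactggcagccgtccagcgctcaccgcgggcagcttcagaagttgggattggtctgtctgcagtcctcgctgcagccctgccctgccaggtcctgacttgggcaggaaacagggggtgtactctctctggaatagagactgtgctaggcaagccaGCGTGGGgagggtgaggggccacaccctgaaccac
The motifs were the EGR core GCGTGGG and the SOX core ACAAAG, searched on both strands with overlaps counted. The capitals in Ncmap are an EGR core 35 bases before the start, and those in Gjb1 a SOX core 57 bases before the RefSeq start and 61 before the GENCODE start. Neither motif occurs in the 2 windows of Pmp22. The RefSeq table held 20 windows of 7 members, of which 2 had the EGR core and 4 had the SOX core. The other EGR core lies 161 bases before an upstream start of Prx, the other SOX core of Gjb1 176 bases before an upstream start, and 2 overlapping windows of Mag share 1 SOX core. Of all 32851 windows of this length, 4.3% held the EGR core and 16.5% the SOX core, so a match is a description of these letters and no sign of a used site.

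Levels are given in TPM, a unit of transcript abundance that takes the length of a transcript and the size of a library into account, and which the authors also normalized between samples. In the sham pads Pmp22 was the highest of the 8 at 243 ± 93.4 TPM (SD, n = 9 mice), and Mbp was at 160 ± 69.5 TPM. Pmp22 was above Mbp in 9 of 9 sham pads, and Mbp above Ncmap in 9 of 9. Ncmap (25.4 ± 11.8 TPM), Prx (19.9 ± 8.20 TPM), Egr2 (14.1 ± 3.14 TPM), and Mal (13.7 ± 5.39 TPM) followed. Ncmap was above Prx in 8 of 9 sham pads, but Prx was above Egr2 in only 5 of 9 and Egr2 above Mal in only 5 of 9, so that these neighbors did not differ beyond their spread. Mag (4.56 ± 1.93 TPM) was above Gjb1 (2.30 ± 0.697 TPM) in 7 of 9. From lowest to highest sample, Gjb1 spanned 12-fold, Ncmap 5.34-fold, and Prx 4.9-fold, against 2.86-fold for Egr2.

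Depth was estimated at 10200000 to 32000000 reads per sample. At that depth Mbp rested on about 1500 to 5770 reads per sample and Pmp22 on 2475 to 7286, whereas Mag rested on 28 to 129 and Gjb1 on 15 to 189. Counting error is therefore small for Mbp and Pmp22 and large for Gjb1 and Mag in the shallow samples.

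The tissue was checked against marker genes. Muscle markers summed to 4410 to 26900 TPM and keratinocyte markers to 5740 to 10300 TPM per sample, as in skin with muscle, and day 1 replicate 1 had the lowest muscle sums. The 9 Schwann lineage markers summed to 55.1 to 105 TPM. The 5 oligodendrocyte markers Mog, Mobp, Opalin, Olig1, and Olig2 summed to at most 1.61 TPM, with 4 of 5 under 1 TPM in every sample, beside more than 54 TPM of the classic Mbp transcripts in every sample. In bulk tissue, fewer Schwann cells in a punch and less RNA per Schwann cell cannot be told apart.

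**Figure D1:**
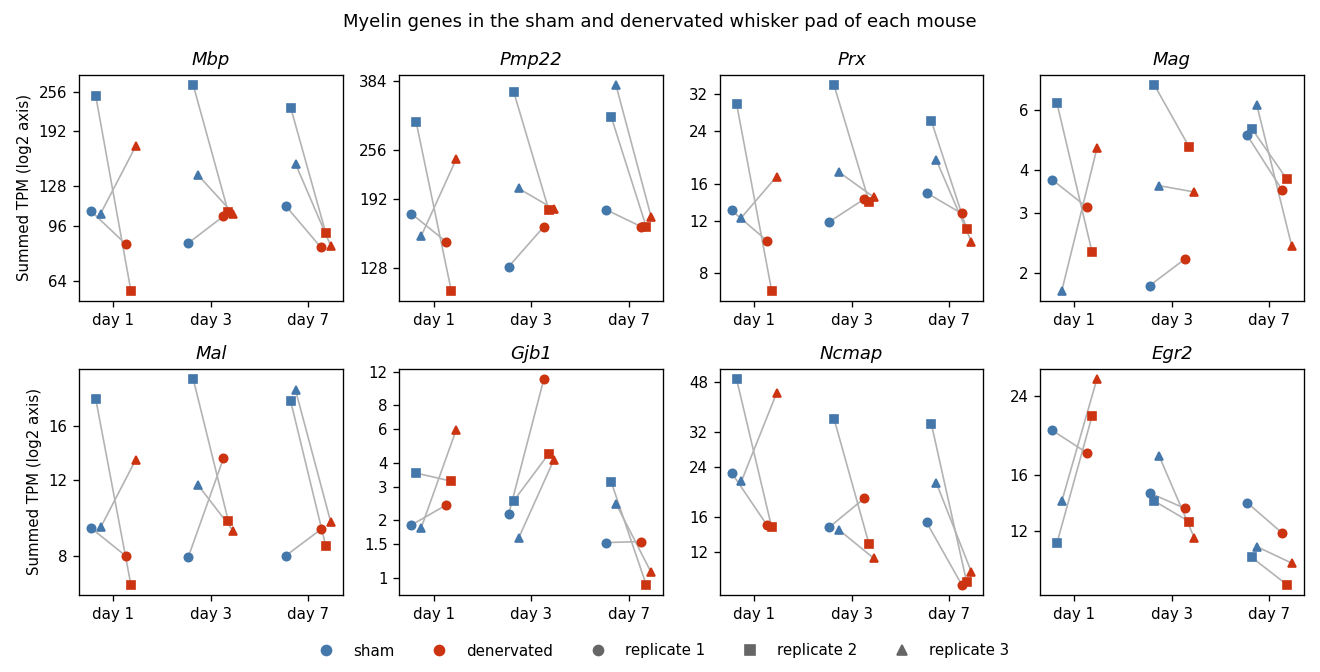
Level of each of the 8 myelin genes in TPM (vertical axes, log2) in the sham and the denervated pad of each mouse at days 1, 3, and 7. Lines join the pads of 1 mouse. At day 7 the denervated pads of Mbp sit between 81.9 and 91.0 TPM, all below the sham pads at 111 to 228 TPM.

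The question of the design is how the cut nerve changed the pad at each day. At day 7 each of the 8 genes had a lower mean in the denervated pads, and none passed the test. The test was limma on log2(TPM + 0.5) with p values adjusted over all genes, and a gene passed below 0.05. It called 230 of 15081 genes (1.53%) at this day, and 0 of the 8 members. The median log2 fold change of the 8 was -0.74, beside 0.04 over all genes tested, and 6 of 8 had an unadjusted p under 0.05, as did 12.3% of all genes. With each mouse as a block, which pairs its pads, limma called 328 of 15081 genes and 0 members. The limma adjusted p values of the members were then 0.073 to 0.47.

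For compact myelin at day 7, Mbp was at 111, 228, and 151 TPM in the sham pads of the 3 mice and at 81.9, 91.0, and 83.0 TPM in their denervated pads. Pmp22 was at 180, 311, and 374 TPM in sham pads and at 163, 163, and 173 TPM in denervated pads. For both genes every denervated pad was below every sham pad. The log2 fold change of Mbp was -0.87 (SE 0.25, limma adjusted p = 0.219), and that of Pmp22 was -0.73 (SE 0.26, limma adjusted p = 0.327).

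Of the scaffold and adhesion genes, Prx was at 14.9, 25.9, and 19.2 TPM in the sham pads and at 12.7, 11.3, and 10.2 TPM in the denervated pads of day 7. Mag was at 5.08, 5.30, and 6.23 TPM in sham pads and at 3.51, 3.77, and 2.40 TPM in denervated pads. The groups did not overlap for either gene, and Mag was the only member at this day whose sham pads were closer together than its denervated pads. The log2 fold change was -0.76 for Prx (SE 0.21, limma adjusted p = 0.195) and -0.71 for Mag (SE 0.19, limma adjusted p = 0.187).

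Ncmap had the largest difference at day 7. It was at 15.3, 34.0, and 21.1 TPM in the sham pads and at 9.21, 9.44, and 10.2 TPM in the denervated pads, so that the 3 denervated pads lay within about 1 TPM of each other, below all sham pads. Its log2 fold change was -1.17 (SE 0.27), a fold of 0.444, with an adjusted p in limma of 0.124, or 0.073 when each mouse was a block.

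Mal and Gjb1 overlapped between sides at day 7. Mal was at 8.03, 18.3, and 19.4 TPM in sham pads and at 9.24, 8.45, and 9.62 TPM in denervated pads, and the sham pad of replicate 1 was the lowest of all 6. Gjb1 was at 1.53, 3.19, and 2.45 TPM in sham pads and at 1.55, 0.921, and 1.07 TPM in denervated pads, with replicate 1 nearly equal on both sides. The log2 fold changes were -0.62 for Mal (SE 0.32, limma adjusted p = 0.508) and -0.76 for Gjb1 (SE 0.29, limma adjusted p = 0.365).

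Egr2 differed least at day 7. It was at 13.9, 10.5, and 11.1 TPM in the sham pads and at 11.9, 9.14, and 10.2 TPM in the denervated pads, lower in each of the 3 mice but with overlapping groups. The log2 fold change was -0.18 (SE 0.16, limma adjusted p = 0.712). Counted over the list, 5 of 8 members had all denervated pads below all sham pads at day 7 (Mbp, Pmp22, Prx, Mag, and Ncmap), where 7.06% of all genes did. No member had the reverse, which 10.6% of all genes did.

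At day 3 the structural genes were mostly lower on average but split between mice, and Gjb1 stood apart with a higher level. No member passed the test, which called 217 of 14943 genes (1.45%). The median log2 fold change of the 8 was -0.28, beside -0.01 over all genes. Rescaled to keratinocyte markers, Pmp22, Mag, and Mal were slightly above 0 (0.01, 0.12, and 0.05), and so they were without replicate 2 (0.08, 0.08, and 0.19). Without replicate 2 the other structural genes were near 0 too, with Mbp at -0.06, Prx at -0.01, and Ncmap at 0.00.

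Mbp at day 3 was at 84.6, 269, and 139 TPM in sham pads and at 103, 106, and 105 TPM in denervated pads. Pmp22 was at 129, 360, and 204 TPM in sham pads and at 163, 180, and 181 TPM in denervated pads. Prx was at 11.9, 34.3, and 17.5 TPM in sham pads and at 14.2, 13.9, and 14.4 TPM in denervated pads. In these 3 genes the denervated pads were nearly equal to one another, while the sham pad of replicate 2 was high and that of replicate 1 was low. The log2 fold changes were -0.49 for Mbp (SE 0.39, limma adjusted p = 0.634), -0.28 for Pmp22 (SE 0.35, limma adjusted p = 0.784), and -0.43 for Prx (SE 0.35, limma adjusted p = 0.645).

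The same mice split the next genes. Mag at day 3 was at 1.84, 7.11, and 3.61 TPM in sham pads and at 2.20, 4.67, and 3.46 TPM in denervated pads. Mal was at 7.98, 20.6, and 11.7 TPM in sham pads and at 13.5, 9.66, and 9.17 TPM in denervated pads. Ncmap was at 14.7, 35.6, and 14.4 TPM in sham pads and at 18.6, 12.8, and 11.4 TPM in denervated pads. Each was higher in the denervated pad of replicate 1 and lower in those of replicates 2 and 3. The log2 fold changes were -0.14 for Mag (SE 0.46, limma adjusted p = 0.938), -0.22 for Mal (SE 0.34, limma adjusted p = 0.83), and -0.48 for Ncmap (SE 0.38, limma adjusted p = 0.631).

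Gjb1, the connexin, had the opposite sign at day 3. It was at 2.16, 2.53, and 1.61 TPM in sham pads and at 11, 4.46, and 4.12 TPM in denervated pads, and every denervated pad was above every sham pad. It was the only member of which that was true, and 11.7% of all genes had the same order. The log2 fold change was 1.32 (SE 0.37), a fold of 2.5, with a limma adjusted p of 0.179.

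Egr2 at day 3 was at 14.6, 14, and 17.6 TPM in sham pads and at 13.5, 12.6, and 11.6 TPM in denervated pads. It was the only member whose denervated pads all lay below its sham pads at this day, an order that 9.82% of all genes had. The log2 fold change was -0.28 (SE 0.12, limma adjusted p = 0.361).

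At day 1 the 3 mice went in different directions. No gene of 14776 (0%) passed the test, although 634 genes (4.29%) had an unadjusted p under 0.05, none of them a member. Mbp was at 107, 248, and 105 TPM in sham pads and at 83.8, 59.7, and 172 TPM in denervated pads. Pmp22 was at 176, 301, and 154 TPM in sham pads and at 149, 112, and 242 TPM in denervated pads. Replicate 2 was lower on the denervated side by more than 2-fold in both genes, and replicate 3 was higher.

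The other structural genes had the same order of mice at day 1. Prx was at 13, 29.7, and 12.3 TPM in sham pads and at 10.3, 6.99, and 16.9 TPM in denervated pads. Mag was at 3.76, 6.30, and 1.78 TPM in sham pads and at 3.12, 2.31, and 4.64 TPM in denervated pads. Mal was at 9.31, 18.5, and 9.34 TPM in sham pads and at 8.01, 6.88, and 13.4 TPM in denervated pads. In each, replicates 1 and 2 were lower on the denervated side and replicate 3 was higher. Ncmap was at 22.9, 49.2, and 21.4 TPM in sham pads and at 15, 14.7, and 43.8 TPM in denervated pads, and its groups overlapped like those of the others.

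Gjb1 at day 1 was at 1.89, 3.54, and 1.82 TPM in sham pads and at 2.41, 3.21, and 5.95 TPM in denervated pads. Egr2 was at 20.1, 11.3, and 14 TPM in sham pads and at 17.9, 21.6, and 26.1 TPM in denervated pads. Each was higher in the denervated pad of 2 of 3 mice. The log2 fold changes at day 1 ran from -0.63 for Prx (SE 0.43) to 0.55 for Gjb1 (SE 0.37), with Mbp at -0.56 (SE 0.49) and Egr2 at 0.54 (SE 0.24), and every limma adjusted p was 0.999. Without replicate 2, the log2 fold changes of Mbp, Pmp22, Prx, Mag, Mal, and Ncmap turned to 0.06 (Prx) to 0.47 (Mag). No member had groups that did not overlap, where 3.95% of all genes were lower and 5.61% were higher without overlap.

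**Figure D2:**
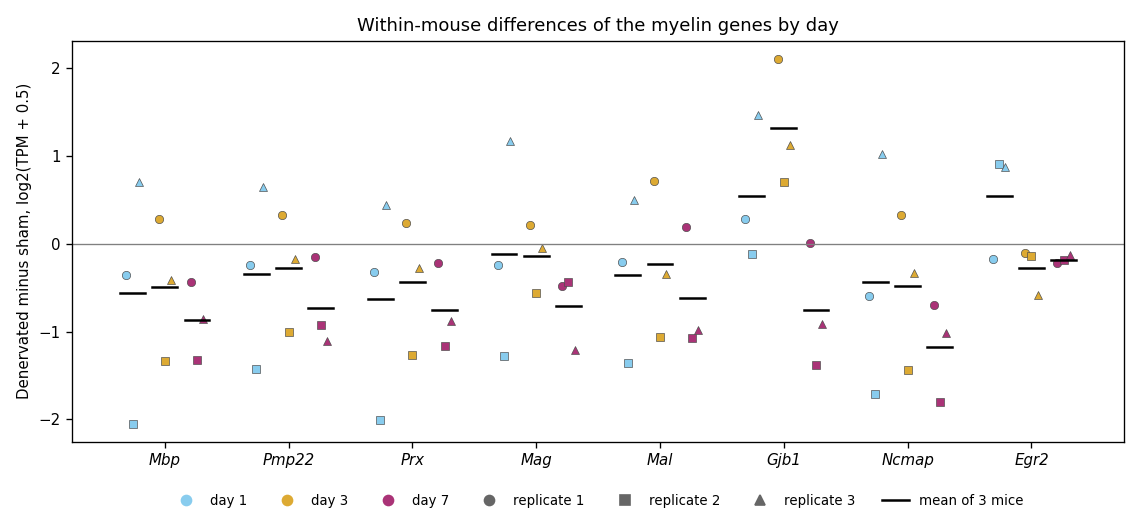
Within-mouse difference in log2(TPM + 0.5), denervated minus sham (vertical axis), of each member in each of the 9 mice, with the mean at each day. Points below 0 are lower on the denervated side. At day 7 the 8 genes lie at or below 0 in replicates 2 and 3, while at day 1 replicate 3 lies above 0 for all 8.

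Most of the 8 genes shared a sign within a mouse. Their mean log2 difference was -0.23, -1.13, and 0.85 in the 3 mice of day 1, 0.52, -0.76, and -0.13 in those of day 3, and -0.25, -1.04, and -0.89 in those of day 7. The median difference over all genes stayed between -0.03 and 0.07 in each mouse. In day 1 replicate 3 all 8 genes were higher on the denervated side, and in day 3 replicate 1 7 of 8 were, with Egr2 the exception. In day 7 replicates 2 and 3 all 8 were lower, and in day 7 replicate 1 6 of 8 were, with Mal and Gjb1 higher by 0.19 and 0.01.

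Over all days with a term for the day, limma called 457 of 14757 genes (3.10%) and none of the 8. The lowest member values were for Ncmap with a log2 fold change of -0.69 (SE 0.26, limma adjusted p = 0.188), Mbp with -0.64 (SE 0.24, limma adjusted p = 0.197), and Prx with -0.61 (SE 0.21, limma adjusted p = 0.151). Pmp22 was at -0.45 (SE 0.2), Mal at -0.40 (SE 0.21), and Mag at -0.32 (SE 0.24), whereas Gjb1 was at 0.37 (SE 0.29) and Egr2 at 0.03 (SE 0.14). The median of the 8 was -0.42, beside 0.01 over all genes. Without day 1 replicate 3, Ncmap fell by 0.91 on the log2 scale with a limma adjusted p of 0.0407, and no other single mouse made a member pass. The fit without day 1 replicate 3 called 550 of 14793 genes. Of single transcripts, 289 of 31694 (0.912%) passed over all days, and 0 of the 21 tested transcripts of the members.

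The pads were also compared as pairs over the 9 mice. The mean within-mouse log2 difference was -0.64 ± 0.85 for Mbp (SD, n = 9; exact two-sided sign-flip permutation p = 0.055, adjusted over all genes 0.309), lower in 7 of 9 mice. It was -0.61 ± 0.79 for Prx (exact sign-flip p = 0.055, adjusted 0.309) and -0.69 ± 0.94 for Ncmap (exact sign-flip p = 0.062, adjusted 0.326), both lower in 7 of 9 mice. Pmp22, Mag, and Egr2 were also lower in 7 of 9 mice and Mal in 6 of 9, while Gjb1 was higher in 6 of 9. Over all genes the smallest adjusted sign-flip p was 0.116, so that no gene passed after adjustment. None of the 8 had an exact p under 0.05, where 6.35% of all genes were lower and 9.90% were higher at that limit. These values depend on single mice. Without day 1 replicate 3, 5 members had an exact permutation p under 0.05, with Mbp at 0.016. Without day 3 replicate 1, 3 members did, with Mbp at 0.039. In both of these mice Mbp was higher on the denervated side. Without any other 1 mouse, no member had an exact permutation p under 0.05, and Mbp was at 0.078 to 0.11. The p values without a mouse are unadjusted, and the share of all genes under 0.05 in those runs is not given here.

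Whether the difference changed between days was tested with interaction terms. Between days 3 and 1, 18 of 14757 genes (0.122%) passed, between days 7 and 1, 24 (0.163%), and between days 7 and 3, 0 (0%). No member passed. The largest change was in Gjb1, whose log2 fold change was 2.08 lower at day 7 than at day 3 (interaction -2.08, SE 0.53, unadjusted p = 0.0014, limma adjusted p = 0.632). Next was Egr2, whose log2 fold change was lower at day 3 than at day 1 (interaction -0.82, SE 0.27, limma adjusted p = 0.33). Without day 1 replicate 1, the value of Egr2 was -1.17 (SE 0.23) with a limma adjusted p of 0.0351. No other member passed among the interaction fits that left out a mouse. The fit without day 1 replicate 1 called 148 of 14772 genes, against 18 of 14757 with all mice.

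The spread between mice differed by side. At day 7 the SD of log2 TPM over the 3 mice was 0.52 in sham pads and 0.08 in denervated pads for Mbp, 0.55 and 0.05 for Pmp22, and 0.57 and 0.07 for Ncmap. At day 3 it was 0.83 and 0.02 for Mbp and 0.75 and 0.03 for Prx. In words, sham pads ranged widely while denervated pads were nearly alike. The median SD of the 8 was 0.48 in sham and 0.12 in denervated pads at day 7 and 0.73 and 0.2 at day 3, but 0.6 and 0.58 at day 1, where the sides were alike. Over all genes the medians were 0.21 and 0.19 at day 7. The denervated SD was the smaller in 7 of 8 members at day 7 (all but Mag), where it was in 52.8% of all genes, and in 7 of 8 at day 3 (all but Gjb1), where it was in 58.2%. At day 1 it was in 4 of 8, against 57.1% of all genes. With 3 mice a group, an SD is a rough value, and these counts are descriptions with no test.

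Start sites separated the Mbp gene, which lies on chromosome 18. Transcripts from the upstream start, known as Golli-Mbp and used outside myelin, held 4.63% of the summed level, and transcripts from the downstream start, which encode the classic myelin basic proteins, held 95.2%. The upstream group was at 5.56, 6.09, and 5.84 TPM in the sham pads of day 7 and at 4.27, 4.75, and 6.27 TPM in the denervated pads, and over all 18 samples it stayed between 4.27 and 7.99 TPM. The downstream group ranged from 54.3 to 261 TPM. At day 7 the log2 fold change was -0.19 for the upstream start (SE 0.18, limma adjusted p = 0.774) and -0.90 for the downstream start (SE 0.27, limma adjusted p = 0.315), and the difference between them was not tested. Over all days 408 of 23135 start-site groups (1.76%) passed and 0 of the 14 tested groups of the members.

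In Pmp22 both main starts were lower to a like extent at day 7, with log2 fold changes of -0.77 (SE 0.3) for the start after the upper printed sequence and -0.70 (SE 0.25) for the start after the lower, with limma adjusted p values of 0.451 and 0.412. The main start of Ncmap, after the window with the EGR core, was at -1.15 (SE 0.28, limma adjusted p = 0.207) at day 7. Its upstream start held 11.2% of the gene, at 0.444 to 5.39 TPM. This start was lower on the denervated side in 9 of 9 mice (log2 fold change over all days -0.70, SE 0.24, limma adjusted p = 0.198). In replicate 1 of days 1, 3, and 7 its log2 difference was near 0, at -0.09, -0.03, and -0.04. The share of all start-site groups with the same order is not given here, and these groups were added after the values were seen. The main start of Prx was at -0.87 at day 7 (SE 0.21, limma adjusted p = 0.207). The main start of Gjb1, after the printed window with the SOX core, was at 1.11 at day 3 (SE 0.49, limma adjusted p = 0.444). At 0 to 11 TPM, it was listed at 0 in the day 7 sham pad of replicate 1, so that the split of Gjb1 between starts is unsure.

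**Figure D3:**
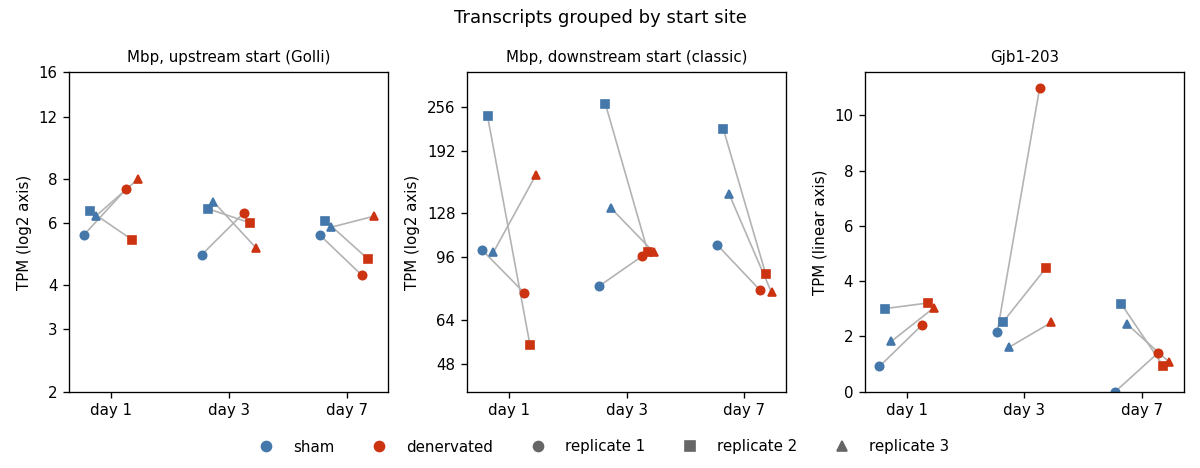
Level in TPM (vertical axes, log2 for both panels of Mbp and linear for Gjb1) of transcripts grouped by start site in the sham and the denervated pad of each mouse, with lines that join the pads of 1 mouse. The upstream start of Mbp stays between 4.27 and 7.99 TPM in all 18 samples, while the downstream start ranges from 54.3 to 261 TPM.

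Egr2 was set beside 5 other immediate early genes, Fos, Egr1, Egr3, Junb, and Nr4a1, since it shares their fast induction. At day 1 all 5 were higher on the denervated side (median log2 fold change 0.33), as was Egr2 at 0.54, and none passed. At day 3 all 5 had a log2 fold change below 0 (median -0.31), as did Egr2 at -0.28, and again none passed. Of the 5, Fos was nearly unchanged at -0.01 (SE 0.4) and higher on the denervated side in 1 of 3 mice. All 6 keratinocyte markers were lower at day 3 as well (median -0.30, none passed), and rescaled to them Egr2 was at 0.00 (log2 fold change). Their part in the values of the early genes was not tested. The log2 fold changes of the structural genes Mbp and Prx were below 0 at both days. At day 7 Nr4a1, an orphan nuclear receptor, fell by 1.05 on the log2 scale (SE 0.12, limma adjusted p = 0.00971), from 18, 21, and 19.6 TPM in sham pads to 9.45, 8.55, and 9.41 TPM in denervated pads, and without any 1 mouse its limma adjusted p was 0.0735 to 0.223. In 1 fit of all 18 samples Nr4a1 did not pass either (limma adjusted p = 0.0771). Egr1 was at 0.05 at that day, Egr3 at 0.11, Fos at -0.1, and Junb at -0.0. The transcripts of Egr2 from the start at 67537869 to 67537930 held 42.9% of the gene and were higher on the denervated side in 3 of 3 mice at day 1, at 6.18, 4.50, and 3.82 TPM in sham pads and 8.28, 8.43, and 8.72 TPM in denervated pads (log2 fold change 0.78, SE 0.19, limma adjusted p = 0.999). The larger start of Egr2, with 56.5% of the gene, was at 13.8, 6.76, and 10.2 TPM in sham pads and 9.39, 13.1, and 17.3 TPM in denervated pads, higher in 2 of 3 mice (log2 fold change 0.37, SE 0.31, limma adjusted p = 0.999). Egr2 counts from Schwann cells and from other cells cannot be told apart here.

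**Figure D4:**
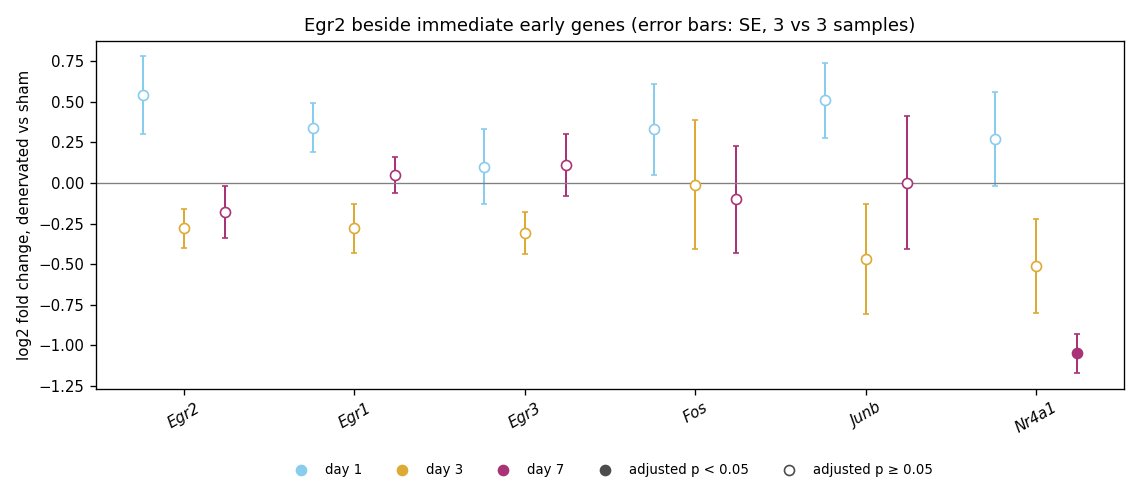
Log2 fold change, denervated against sham, with its SE from limma (vertical axis) of Egr2 and 5 immediate early genes at days 1, 3, and 7 (3 mice each), with filled points where the adjusted p was under 0.05. Egr2 lies at 0.54 at day 1 and -0.28 at day 3, and the filled point of Nr4a1 at day 7 lies at -1.05.

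Of 26 other myelin genes fixed as a list (structure, nodes and junctions, lipid synthesis, control, and inherited neuropathy), 0 passed at any day or over all days in limma, and at day 7 14 were lower and 12 higher, with a median of -0.08. The medians at days 1 and 3 were -0.17 and -0.16, with 19 of 26 lower at each. Cldn19, a claudin of the Schwann cell, was at 7.51, 13.9, and 10.5 TPM in the sham pads of day 7 and at 3.94, 5.22, and 3.51 TPM in the denervated pads, and every denervated pad was below every sham pad. Its log2 fold change was -1.21 (SE 0.25, limma adjusted p = 0.0837). When each mouse was a block, this gene passed at 0.032. Sox10, the factor of the whole lineage, was at 0.24 at day 7 (limma adjusted p = 0.741). It turned to slightly below 0 when values were rescaled to keratinocyte markers.

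Of the 10 genes whose within-mouse differences were most like the mean of the 8 over the 9 mice, members left out, 9 are given here: Smco3 (Pearson r = 0.983), Cldn19 (0.974), Cfap100 (0.952), Ddn (0.947), Drp2 (0.934), Fam178b (0.933), Cntf (0.932), Ntrk3 (0.932), and Arhgap19 (0.928). Cldn19 and Drp2, which encodes a partner of periaxin, were on the list of other myelin genes, and Cntf encodes a neurotrophic factor that myelinating Schwann cells store. The mice are the points, both pads of a mouse share the animal, and the values are a ranking with no test. Of the 9, Arhgap19 passed over all days (log2 fold change -0.50, limma adjusted p = 0.0283).

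Of 5 genes of the repair state, 3 rose in the same pads at day 7. Ngfr, the p75 neurotrophin receptor, was at 6.48, 5.03, and 3.44 TPM in sham pads and at 14.9, 19.5, and 13.1 TPM in denervated pads (log2 fold change 1.60, SE 0.25, limma adjusted p = 0.0312). Jun was at 19.8, 18.3, and 17 TPM in sham pads and at 33.5, 37.6, and 32.6 TPM in denervated pads (log2 fold change 0.89, SE 0.12, limma adjusted p = 0.0164). Gdnf, a growth factor for motor neurons, was at 1.76, 1.67, and 1.72 TPM in sham pads and at 4.44, 5.13, and 7.64 TPM in denervated pads (log2 fold change 1.46, SE 0.22, limma adjusted p = 0.0277). In each of the 3 genes, every denervated pad was above every sham pad. Shh was at 0.16 (limma adjusted p = 0.932) and Sox2 at 0.58 (limma adjusted p = 0.667). Each of the 3 calls was lost without any 1 mouse, with limma adjusted p values of 0.0658 to 0.363 for Ngfr, 0.093 to 0.308 for Jun, and 0.0918 to 0.356 for Gdnf, and each was lost when values were rescaled to keratinocyte markers. Rescaled to an equal sum, Ngfr (limma adjusted p = 0.0589) and Jun (0.0538) did not pass, and with genes above 0 TPM admitted to the test, Ngfr (0.057) and Gdnf (0.0526) did not. At day 3 Jun was higher by 1.08 on the log2 scale, which passed with each mouse as a block (limma adjusted p = 0.0177) but not without it (0.0521). No repair gene passed at day 3 in the main fit, with 0.0514 as the smallest limma adjusted p. Jun stayed above the threshold in 8 of 14 alternatives and Gdnf in 9 of 13, and they passed in the others. Neither passed at day 3 without any 1 mouse (limma adjusted p 0.217 to 0.227 for Jun and 0.144 to 0.498 for Gdnf). Over all days Jun rose by 0.74 (limma adjusted p = 0.00375) and Gdnf by 1.03 (limma adjusted p = 0.00339) on the log2 scale, though neither passed when values were rescaled to muscle markers. Muscle fibers and other cells of the pad also make Jun and Gdnf.

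**Figure D5:**
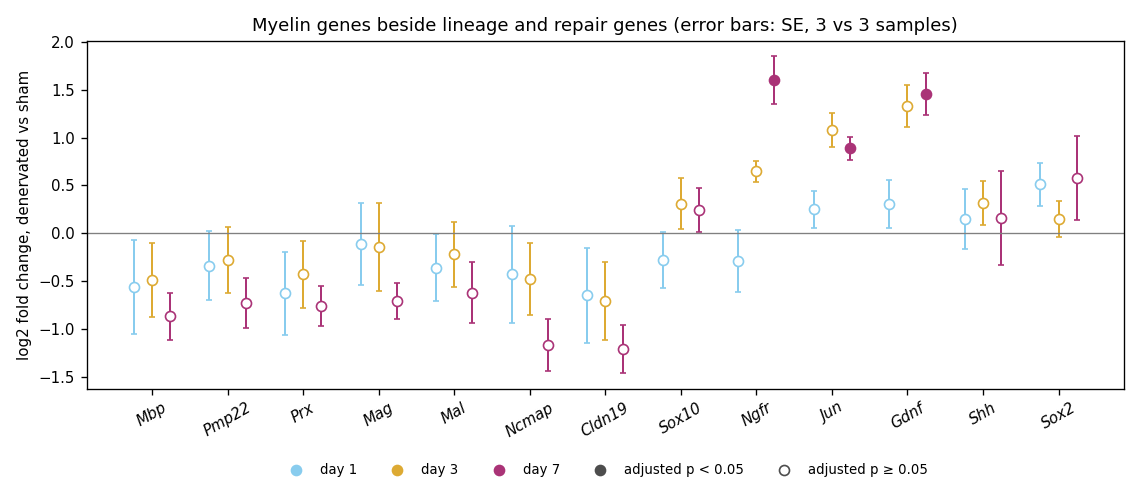
Log2 fold change, denervated against sham, with its SE from limma (vertical axis) of 6 structural members, of Cldn19 and Sox10, and of 5 repair genes at days 1, 3, and 7, with filled points where the adjusted p was under 0.05. At day 7 Mbp, Prx, and Ncmap lie between -0.76 and -1.17, and the filled points of Ngfr, Jun, and Gdnf lie between 0.89 and 1.60.

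Markers of other cells at day 7 stood as follows. Schwann lineage markers summed to 85.2 to 105 TPM in denervated pads and 64.9 to 86.1 TPM in sham pads, with 6 of 8 tested higher and 1, Ngfr, called. These sums include Ngfr, also counted among the repair genes, at 13.1 to 19.5 TPM in denervated and 3.44 to 6.48 TPM in sham pads. S100b was at -0.34 (limma adjusted p = 0.692) and Cdh19 at 0.98 (limma adjusted p = 0.25). Neuron markers summed to 7.92 to 9.43 TPM in denervated and 9.61 to 13.6 TPM in sham pads, with 0 of 2 tested called. Macrophage markers summed to 278 to 624 TPM in denervated and 141 to 417 TPM in sham pads, all 5 higher and 0 called, or 1 with each mouse as a block (Lyz2, limma adjusted p = 0.0375). In muscle markers Actn3 rose by 1.64 (limma adjusted p = 0.00997) and Ckm fell by 1.12 (limma adjusted p = 0.01) on the log2 scale, and Pvalb passed as well with each mouse as a block (log2 fold change -0.68, limma adjusted p = 0.0379). None of the keratinocyte, fibroblast, endothelium, T cell, melanocyte, or adipocyte markers passed at day 7 in limma, with medians of 0.12, 0.38, -0.04, 0.18, 0.08, and 0.26. The part of these cells in the values of the myelin genes was not tested.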

How the data were processed

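RNA was measured in 18 pads of 9 mice, grouped by day and side from the labels. The authors used a TruSeq RNA v2 kit and a NextSeq 500 instrument, called bases with bcl2fastq2 2.17.1.14, removed duplicate reads with ParDRe, trimmed with Fastp, and quantified Ensembl cDNA of GRCm38 with kallisto 0.43.1 for sleuth. Deposited signal values were TPM after a normalization between samples by the authors, and summed to 833186 to 1143839 per sample. They were taken to be plain TPM when the tests were chosen, and the tests were kept.

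Of 113194 transcripts, 98.46% matched GENCODE M21, and values were summed per gene. A gene was tested if 47% or more of the samples in a fit reached a TPM of 1. They were compared on log2(TPM + 0.5), a scale that understates changes of low genes, with limma 3.58.1 (R 4.3.3, trended variance), Benjamini-Hochberg adjustment over all genes, and a threshold of 0.05: each day alone, all days with day as a term, and interactions. Exact sign-flip tests over 9 mice were two-sided, with 0.0039 as the smallest p. Pads of 1 mouse deviated together from their group means (correlation 0.163 to 0.568 per mouse), and the labels give both pads of a mouse the same animal name. The mouse as a block was an alternative, like other pseudocounts, filters, scalings, and leaving out each mouse. Depth was estimated from low values of long transcripts, where 70.9% to 83.5% of values times length lay within 0.1 of a whole number of reads. The scripts were tested on simulated data. Python 3.11.15, pandas 2.3.3, numpy 2.4.6, scipy 1.17.1, and matplotlib 3.10.9 were used.

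The members and gene lists were chosen with earlier results of these data known. Named genes were the 8 members, Sox10, other myelin genes that passed, the 10 most similar genes, and the early, repair, and marker genes. Start-site groups and Cldn19, Drp2, Pmp2, and Erbb3 were added after the values were seen. Some results under this rule are not reported here.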

Additional observations from a re-analysis of the deposited data

Results flagged for a closer look

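Pmp2, a fatty acid-binding protein of myelin, was higher on the denervated side in all 3 mice of day 3 and lower in all 3 mice of day 7, with mean within-mouse log2 differences of 0.67 and -0.58. Its levels were low, at 1.26, 4.41, and 2.05 TPM in sham and 2.69, 5.36, and 4.29 TPM in denervated pads of day 3, and at 6.51, 5.40, and 5.89 TPM in sham and 5.59, 4.01, and 2.36 TPM in denervated pads of day 7. Erbb3, a receptor of Schwann cells for neuregulin, was lower in all 3 mice of day 3 and higher in all 3 mice of day 7, with mean log2 differences of -0.11 and 0.28. Neither gene passed at either day, and the difference between days was flagged by the signs of the mice alone. In the interaction between days 7 and 3, which included both genes, 0 of 14757 genes passed.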

How the results depend on the processing

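Of 481 alternative values of the members' log2 fold changes, 465 did not turn in sign and stayed on their side of the threshold, 1 came to pass, and 15 turned. Values that rounded to 0 were counted as not turned. No member passed in the main fits, so staying on the same side meant not passing. Filters, the variance trend, the mouse as a block, and 1 fit of all samples can change only the p value here. For those alternatives the kept direction is no support. No member passed at day 1, 3, or 7 under any alternative run. With the mouse as a replicate block 0 members passed, and 1 other myelin gene did (Cldn19). Leaving out mice gave 0 to 1 members over all days (1 without day 1 replicate 3). It gave 0 to 1 members that differed between days (1 without day 1 replicate 1). Of the other myelin genes it gave 0 to 2 (Cldn19 and Drp2 without day 1 replicate 3). In the sign-flip test 0 to 5 members had an unadjusted p under 0.05, and the share of all genes in those runs is not given. Without 1 mouse, log2 fold changes at day 1 ran from -1.20 to 0.18 for Mbp, -0.83 to 0.20 for Pmp22, -1.17 to 0.06 for Prx, -0.76 to 0.47 for Mag, -0.79 to 0.14 for Mal, -1.15 to 0.21 for Ncmap, -1.38 to 0.04 for Cldn19, -0.64 to 0.10 for Sox10, -0.07 to 0.51 for Nr4a1, -1.34 to 0.01 for Drp2, -0.36 to 0.41 for Pmp2, and -0.02 to 0.08 for Erbb3. At day 3 they ran from -0.58 to 0.08 for Pmp22, -0.31 to 0.08 for Mag, and -0.70 to 0.19 for Mal, and over all days from -0.08 to 0.10 for Egr2 and -0.09 to 0.17 for Pmp2. Without day 1 replicate 2, the 6 structural members turned to higher at day 1.

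Rescaling to keratinocyte markers turned Pmp22 to 0.01, Mag to 0.12, Mal to 0.05, and Erbb3 to 0.17 at day 3, and Sox10 to -0.04 and Erbb3 to -0.01 at day 7. Rescaling to muscle markers turned Egr2 to -0.09, Sox10 to -0.03, Pmp2 to -0.05, and Erbb3 to -0.05 over all days, Sox10 to -0.07 at day 3, and Pmp2 to 0.09 at day 1. At day 3 the median of all genes was -0.01 in the main fit, 0.25 with the first, and -0.39 with the second. The share of calls that were higher went from 69.6% to 89.6% and 33.5%. At day 7 keratinocyte markers moved the median from 0.04 to -0.24, and the share went from 66.5% to 42.9%. Over all days the calls over all genes numbered 128 with muscle and 178 with keratinocyte markers in place of 457, and without 1 mouse 0 to 133 at day 3 in place of 217 and 1 to 127 at day 7 in place of 230. The cause of these turns was not tested. A filter of at least 5 TPM removed Mag and Gjb1 from some fits, which gave no value there. Gjb1 and Mag rest on as few as 15 and 28 reads in a sample, which limits the precision of their values.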
